A study of Mus musculus with 31 samples.

Results

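Of the 16 libraries titled MT, 11 carried Krt5, a keratin of basal epithelium, at 100 CPM or more (CPM, the usual unit of gene counts scaled by the total counts in the library). These 11 were chosen by that measured Krt5 level and are described here. They comprised all 8 libraries given poly I:C (MT-PIC 1 to 4 and MT-COMBO 1 to 4) and 3 of the 8 that did not receive it (MT-CTRL 4, MT-PHEN 3 and MT-PHEN 4). The comparison asks how libraries with and without poly I:C differed among MT tumours in the Krt5-high state. Krt5 was measured in the same tumour libraries, and no library given poly I:C was Krt5-low. Effects of poly I:C and of this selection therefore cannot be told apart. The whole series holds 31 bulk RNA libraries, 16 titled MT and 15 titled 4T1, of orthotopic mammary tumours in syngeneic, wild-type mice.

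MT-CTRL received saline and PBS, MT-PHEN saline and phenformin, MT-PIC poly I:C and PBS, and MT-COMBO poly I:C and phenformin. The arm without poly I:C therefore held 1 library without and 2 with phenformin, and the arm with poly I:C held 4 of each. Each model is 1 cell line, and no dose, time or age was given in the sources used here. Libraries titled MT carry the tags BALBc and 4T1-537 and those titled 4T1 the tags FVB and MT4788, whereas the design text pairs MT with FVB and 4T1 with BALBc. Groups follow the titles. H2-Ea-ps, whose transcription depends on the MHC haplotype of the strain, was at 5.24 to 53 CPM under the title MT and at 214 to 970 CPM under the title 4T1. The labels do not say whether replicates are separate animals, so p-values here reflect only how these libraries spread, which may be technical.

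Poly I:C mimics the double-stranded RNA of viruses. Toll-like receptor 3 in endosomes and the RIG-I-like receptor MDA5 in the cytosol recognise it, and signalling from them through TBK1 and NF-kB leads to type I interferon and inflammatory cytokines. Interferon then acts through its receptor on interferon-stimulated genes, whereas granulocyte colony-stimulating factor and related cytokines drive the production and release of neutrophils from bone marrow. Phenformin, a biguanide related to metformin, blocks the first enzyme of mitochondrial electron transport, complex I.

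The rule that chose the libraries used Krt5, whose values are given as a description. Krt5 measured 344 to 2535 CPM (median 1838) in the 8 libraries given poly I:C. It measured 2223 CPM in MT-CTRL 4, 1653 CPM in MT-PHEN 3 and 1120 CPM in MT-PHEN 4. The library just inside the threshold was MT-COMBO 1 at 344 CPM, and the one just outside was MT-PHEN 1 at 36.2 CPM. Sox10, a neural crest and mammary progenitor factor that was high in the 5 Krt5-low libraries (168 to 211 CPM), measured 0.70 to 3.19 CPM in 10 of the 11 and 34.4 CPM in MT-PHEN 3. MT-PHEN 3 therefore held more Sox10 than the other Krt5-high libraries and less than any Krt5-low library.

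**Figure D1:**
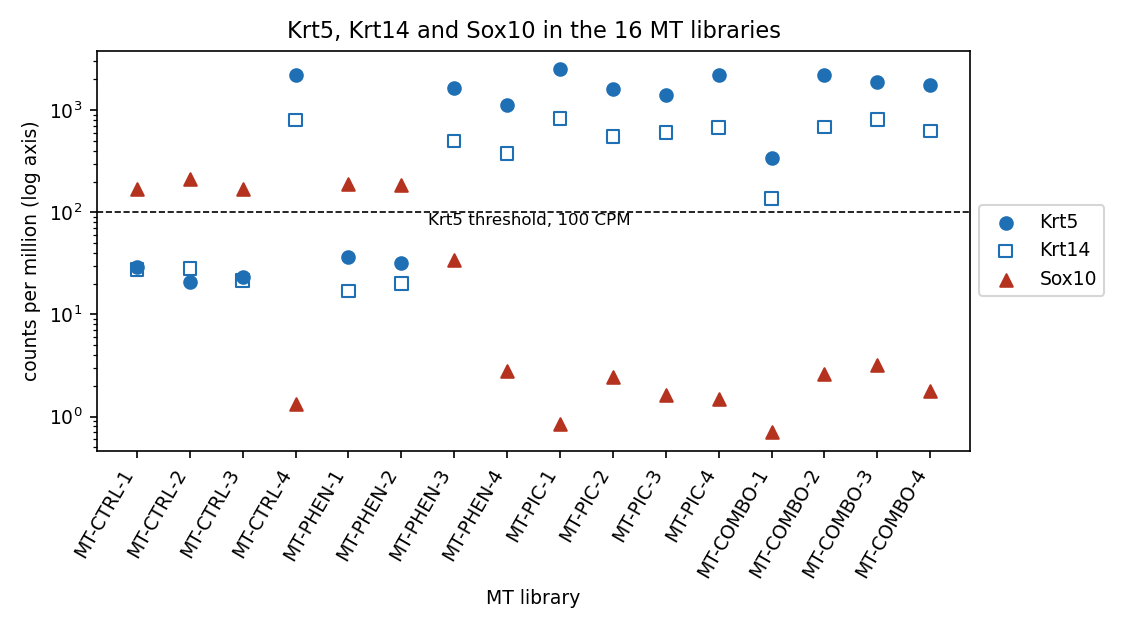
CPM (log axis) of Krt5, Krt14 and Sox10 in each of the 16 MT libraries, 1 point for each gene and library, with a dashed line at the Krt5 threshold of 100 CPM. The 8 libraries given poly I:C and MT-CTRL 4, MT-PHEN 3 and MT-PHEN 4 lie above the line for Krt5, and the 5 others have Krt5 of at most 36.2 CPM and Sox10 of at least 168 CPM.

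Total counts were 15132000 to 16724747 in the 8 libraries with poly I:C and 12160110 to 14901522 in the 3 without. Igkc, the immunoglobulin kappa constant gene, was above 1000 CPM in 4 of the 11 libraries, MT-COMBO 1 (9108 CPM), MT-PHEN 4 (3329 CPM), MT-PIC 3 (2805 CPM) and MT-COMBO 4 (2209 CPM), and 26.5 to 311 CPM in the other 7. MT-COMBO 1 also had the lowest Krt5 and Krt14 (137 CPM) of the 11. In bulk tissue, fewer cells of a type and less RNA per cell cannot be told apart.

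Within the Krt5-high state, few genes passed the threshold between libraries with and without poly I:C. In edgeR's quasi-likelihood test with a phenformin term, 11 of 17925 genes (0.0614%) had an adjusted p under 0.05, with 2 higher and 9 lower. At an unadjusted p under 0.05, 1204 genes were higher (6.72%) and 1210 lower (6.75%). In simulated data at these library totals the fit recovered 26% of 2-fold and 81% of 4-fold changes, with 3 false calls. The changed genes there had a mean above 1 CPM, and no shifts of whole libraries were simulated. The count depended on single libraries and on the tool: it was 0 without MT-CTRL 4, MT-PHEN 4, MT-COMBO 2, MT-COMBO 3 or MT-PIC 4, each left out alone, 161 without MT-COMBO 1, and 668 with DESeq2. The 16 MT libraries together, which include these 11, gave 3710 of 16717 genes (22.2%). There the Krt5-low libraries all lie in the arm without poly I:C. The phenformin term of the 11-library fit called 0 genes, with 808 at an unadjusted p under 0.05. For poly I:C, the share of genes at that unadjusted threshold, in either direction, differed by fit. It was 748 of 18275 without MT-CTRL 4 and 412 of 17878 for MT-COMBO against MT-PHEN.

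Of the 2 genes that rose, Stfa2 had the larger fold change. Stfa2 is a stefin A cysteine protease inhibitor of granulocytes (ENSMUSG00000022902, GRCm38 chr16:36403992-36408457, minus strand). Stfa2 measured 1.91 to 11.7 CPM (median 4.05) in the 8 libraries with poly I:C. In the 3 without, it measured 0.0822 CPM in MT-CTRL 4, 0.147 CPM in MT-PHEN 3 and 0.134 CPM in MT-PHEN 4, from 1, 2 and 2 counts. Every library with poly I:C was above every library without it. Pooled over libraries, the level in CPM was 45.8 times as high (95% interval 19.5 to 142, counting error only), and the fitted log2 fold change was 5.58 ± 0.757 (SE, adjusted p = 0.0469).

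Stfa2 lies in a cluster of stefin A genes on chromosome 16, of which 9 were listed and 8 passed the filter on low counts. All 8 were higher in every library with poly I:C than in any without, and their median log2 fold change was 3.79, against 0.01 for all genes tested. Among all genes tested, 2.67% were separated in this direction without overlap. Only Stfa2 had an adjusted p under 0.05, and Gm5416 was at most 0.198 CPM in any library with poly I:C. This cluster was assembled after its values were seen, and genes so low without poly I:C could pass the filter only through the libraries that received it, so the counts are a description. Csta1, a stefin A gene outside the 9, overlapped between the arms. It measured 0.318 to 0.837 CPM with poly I:C, against 0.740, 0.0737 and 0.201 CPM in MT-CTRL 4, MT-PHEN 3 and MT-PHEN 4. BC100530 measured 1.79 to 16.8 CPM with poly I:C and 0.164, 0.516 and 1.07 CPM in MT-CTRL 4, MT-PHEN 3 and MT-PHEN 4 (log2 fold change 3.95 ± 0.668, adjusted p = 0.0749). BC117090 gave 3.97 ± 0.624 (adjusted p = 0.0647), Stfa3 gave 3.69 ± 0.678 (adjusted p = 0.0813) and Stfa2l1 gave 3.27 ± 0.677 (adjusted p = 0.0899). These genes are near copies of one another, so reads may be split between them and each single value is uncertain.

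Promoters of 4 granulocyte genes are shown, 2 of the stefin A cluster and Ngp and S100a9, whose arms also did not overlap (described below). Each line is the 250 bases before the start site in the direction of the gene, from RefSeq on GRCm38.p6, whose start sites can differ from the GENCODE gene bounds given here. Capitals mark the motif TTGCNNAA, bound by C/EBP factors, which direct the granulocyte programme. It was the only C/EBP pattern searched, on both strands.
Stfa2: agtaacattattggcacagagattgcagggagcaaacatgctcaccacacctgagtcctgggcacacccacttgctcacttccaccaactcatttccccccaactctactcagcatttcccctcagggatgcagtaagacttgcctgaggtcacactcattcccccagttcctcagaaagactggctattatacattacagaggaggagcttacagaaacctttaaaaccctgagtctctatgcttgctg
Stfa2l1: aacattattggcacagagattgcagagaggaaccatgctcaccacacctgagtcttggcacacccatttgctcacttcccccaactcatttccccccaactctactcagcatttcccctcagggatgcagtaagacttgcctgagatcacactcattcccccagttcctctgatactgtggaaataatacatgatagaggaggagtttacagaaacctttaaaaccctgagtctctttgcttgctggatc
Ngp: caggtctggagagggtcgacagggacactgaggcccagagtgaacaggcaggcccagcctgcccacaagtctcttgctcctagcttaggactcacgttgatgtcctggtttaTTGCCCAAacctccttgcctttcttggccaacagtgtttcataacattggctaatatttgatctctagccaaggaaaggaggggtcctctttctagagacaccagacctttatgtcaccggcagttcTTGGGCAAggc
S100a9: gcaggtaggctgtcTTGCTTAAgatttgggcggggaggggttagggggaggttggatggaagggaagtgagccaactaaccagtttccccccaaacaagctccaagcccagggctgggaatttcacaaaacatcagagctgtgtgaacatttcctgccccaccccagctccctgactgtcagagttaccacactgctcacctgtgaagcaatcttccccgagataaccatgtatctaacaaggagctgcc

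The Stfa2 window is chr16:36408364-36408613 (minus strand) and the Stfa2l1 window chr16:36156561-36156810 (plus strand). Shifted by 4 bases and with no gaps, they were identical at 188 of 246 overlapping bases (76.4%), and neither held the motif. The Ngp window, chr9:110419558-110419807 (plus strand), held it at 2 places, starting 138 and 11 bases before the start site. The S100a9 window, chr3:90695722-90695971 (minus strand), held it once, 236 bases before the start. Of other granulocyte genes described below whose arms did not overlap, Mpo, Ms4a3, Csf3r and Cd177 had no match and Mmp8 had 1. S100a8 and Elane, whose arms overlapped, had none. Of the 25 neutrophil markers listed, 23 had a promoter in the table, and 9 of their 24 promoters held the motif (37.5%), against 3142 of all 32851 promoters (9.56%). For comparison, the core of the interferon-stimulated response element (2 copies of GAAA with 2 bases between them) was in 0 of the 24 and in 10 of 30 promoters of interferon-stimulated genes (33.3%), against 2.98% of all promoters. These are matches of letters and were not tested as binding sites.

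Neutrophil and granulocyte precursor genes were mostly higher with poly I:C. Of 25 listed markers 23 passed the filter on low counts, and 16 of these were higher and 0 lower at an unadjusted p under 0.05, where 6.72% of all genes were higher. Their median log2 fold change was 1.56, and 7 of 23 showed no overlap between the arms (2.67% of all genes). Members near 0 without poly I:C, such as Elane and Stfa2l1, could pass the filter only through the libraries that received it, so these counts are a description. No member had an adjusted p under 0.05. Across the 21 other fits within the Krt5-high libraries the median ran from 1.12 to 1.86. A fit chosen after seeing the data left out the 4 libraries with Igkc above 1000 CPM. It kept 7 libraries, of which only MT-CTRL 4 and MT-PHEN 3 lacked poly I:C. In it 6 of the 23 rose and 1 fell by the adjusted threshold (1.20% and 1.10% of all genes). Without MT-CTRL 4 the count at an unadjusted p under 0.05 was 11 of 23, and for MT-COMBO against MT-PHEN it was 8.

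Among granule genes of precursors, Mpo, which encodes myeloperoxidase, measured 4.19 to 28.1 CPM (median 12.3) with poly I:C. It measured 0.740 CPM in MT-CTRL 4, 0.663 CPM in MT-PHEN 3 and 2.21 CPM in MT-PHEN 4. The arms did not overlap, and the log2 fold change was 3.78 ± 0.567 (adjusted p = 0.0562). Elane, neutrophil elastase, measured 0.359 to 4.89 CPM with poly I:C, and 0, 0.0737 and 0.537 CPM without it, so its arms overlapped. Ms4a3, a marker of granulocyte and monocyte progenitors, measured 0.658 to 5.57 CPM against 0, 0.0737 and 0.604 CPM (log2 fold change 3.91 ± 0.713, adjusted p = 0.0813). Ms4a3 was chosen after its values were seen, as were Prtn3 and Camp. Prtn3, Camp and Ltf, also listed markers, overlapped between the arms. Prtn3 measured 2.51 to 12.1 CPM with poly I:C against 1.56, 6.93 and 2.01 CPM, in the same order. Camp measured 3.29 to 23.3 CPM against 0.493, 7.66 and 4.43 CPM. Ltf measured 77.7 to 236 CPM against 84.6, 134 and 68.5 CPM. In the Krt5-low libraries Prtn3 was 24.0 to 32.6 CPM and Camp 24.0 to 56.2 CPM.

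Ngp, a granule protein of maturing neutrophils, measured 20.5 to 98.4 CPM (median 54.3) with poly I:C. Without it, Ngp measured 1.07 CPM in MT-CTRL 4, 3.46 CPM in MT-PHEN 3 and 10.2 CPM in MT-PHEN 4. All 8 libraries were above all 3, and MT-PHEN 4 was the highest of the 3 (log2 fold change 3.83 ± 0.602, adjusted p = 0.0647). S100a9, a calcium-binding alarmin, measured 49.7 to 341 CPM (median 136.5) against 4.69, 16.2 and 41.9 CPM in the same order (3.31 ± 0.67, adjusted p = 0.0885). Its partner S100a8 overlapped, at 42.3 to 339 CPM with poly I:C against 4.19, 129.5 and 28.3 CPM. S100a8 was 747 to 2392 CPM in the Krt5-low libraries, where S100a9 was at most 19.7 CPM.

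Among markers of mature neutrophils, Csf3r, the receptor for granulocyte colony-stimulating factor, measured 13.7 to 33.2 CPM (median 19.1) against 2.88, 4.2 and 8.79 CPM (log2 fold change 1.85 ± 0.368, adjusted p = 0.0858). Mmp8, neutrophil collagenase, measured 3.35 to 11.8 CPM against 1.07, 0.590 and 2.35 CPM (2.58 ± 0.548, adjusted p = 0.0954). Cd177, a neutrophil surface protein chosen after its values were seen, measured 2.81 to 14.1 CPM against 0.164, 0.884 and 1.48 CPM (3.41 ± 0.557, adjusted p = 0.072). Cxcr2, the chemokine receptor of circulating neutrophils, overlapped at 5.12 to 20.8 CPM against 4.28, 1.55 and 14.5 CPM. Ly6g did not pass the filter and was 0 to 0.583 CPM. Lcn2 and Slpi, which epithelium also makes, overlapped between the arms, with log2 fold changes of -0.79 ± 0.567 and -0.31 ± 0.764. In the Krt5-low libraries they reached 6256 and 1621 CPM.

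**Figure D2:**
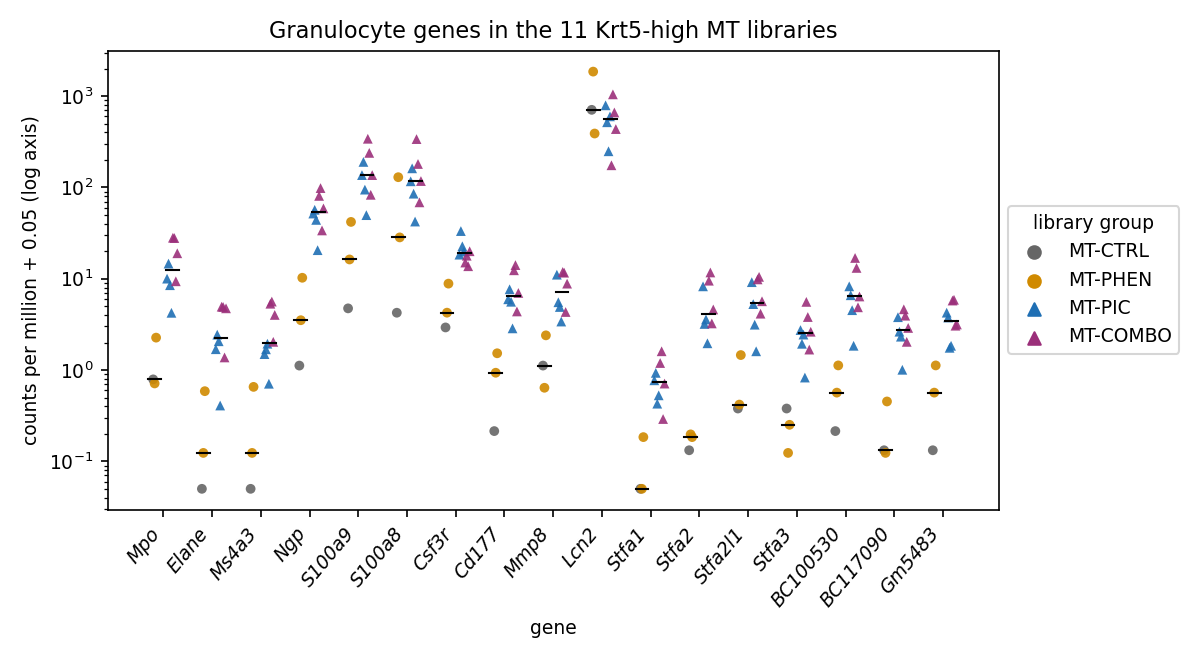
CPM plus 0.05 (log axis) of 17 granulocyte genes in each of the 11 Krt5-high MT libraries, with circles for the 3 without and triangles for the 8 with poly I:C, colours for the groups and a line at each median. For Mpo, Ngp, S100a9, Csf3r and the 7 stefin A genes shown, every triangle is above every circle, whereas Lcn2 overlaps.

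Erythroid genes, which mark red blood cells and their precursors, are given beside the granulocyte genes. Of 11 listed, 8 passed the filter, 6 were higher and 0 lower at an unadjusted p under 0.05 (6.72% of all genes were higher), and the median log2 fold change was 1.89. Without MT-CTRL 4 these were 2 of 9 and 1.21, and for MT-COMBO against MT-PHEN 2 of 7 and 1.19. Slc4a1, a listed member, was at 0, 0.147 and 0.336 CPM in MT-CTRL 4, MT-PHEN 3 and MT-PHEN 4. Members so low without poly I:C could pass the filter only through the libraries that received it, so these counts are a description. Hba-a1, alpha globin, measured 126 to 752 CPM (median 256) with poly I:C, against 37.3 CPM in MT-CTRL 4, 34.9 CPM in MT-PHEN 3 and 119.5 CPM in MT-PHEN 4 (1.84 ± 0.612, adjusted p = 0.239). Alas2, the first enzyme of erythroid haem synthesis, measured 3.44 to 26.8 CPM against 0.822, 1.03 and 2.42 CPM. Neither gene overlapped. The summed level of the 11 genes was 235 to 1656 CPM with poly I:C and 70.1 to 246 CPM without. MT-PIC 2 had the most Alas2, Hba-a1 and Csf3r, while MT-COMBO 2 had the most Ngp. Among the libraries without poly I:C, MT-PHEN 4 had the most Alas2, Hba-a1, Ngp and Mpo. The part of blood in the granulocyte values was not tested.

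Of 24 macrophage and monocyte genes 12 were higher and 0 lower at an unadjusted p under 0.05 (6.72% of all genes were higher), 0 passed the adjusted threshold, and the median log2 fold change was 0.89. Without MT-CTRL 4 the count was 6 and the median 0.55, and for MT-COMBO against MT-PHEN 0 and 0.52. Without the 4 libraries with high Igkc, 12 of the 24 rose and 0 fell by the adjusted threshold (1.20% of all genes rose), with a median of 1.28. That fit, chosen after seeing the data, held only MT-CTRL 4 and MT-PHEN 3 without poly I:C. Fcgr1, the high-affinity IgG receptor, measured 10.7 to 56.5 CPM (median 38.4) with poly I:C, against 7.57 CPM in MT-CTRL 4, 13.3 CPM in MT-PHEN 3 and 12.2 CPM in MT-PHEN 4. Its arms overlapped, because MT-COMBO 1 lay below 2 of the 3 (1.69 ± 0.436, adjusted p = 0.148). C1qb, a complement component of tissue macrophages, measured 97.5 to 268 CPM against 56.6, 87.1 and 114 CPM (1.16 ± 0.307, adjusted p = 0.151). Ms4a7 measured 31.1 to 105 CPM against 18.1, 24.9 and 31.8 CPM (1.33 ± 0.349, adjusted p = 0.148). Spp1, osteopontin, was lower in mean, at 708 ± 346 CPM (SD, 8 libraries) against 1042 ± 401 CPM (SD, 3 libraries).

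MHC class II genes gave 4 of 11 higher and 0 lower at an unadjusted p under 0.05 (6.72% of all genes were higher). Their median log2 fold change was 0.22. The count was 1 without MT-CTRL 4 (median 0.24). H2-Ab1, a class II beta chain, measured 1017 to 1481 CPM against 751, 846 and 1154 CPM (0.43 ± 0.159, adjusted p = 0.281). Ctss, the protease that trims the class II invariant chain, measured 529 to 1229 CPM against 322, 492.8 and 628 CPM (0.90 ± 0.282, adjusted p = 0.216). T and NK cell markers gave 2 of 24 higher, near the 6.72% of all genes, and the median of 0.17 ran from -0.12 to 0.64 over the other fits. B and plasma cell markers gave 0 of 15 in either direction, with a median of -0.27 and a summed level of 443 to 18139 CPM across the 8 libraries. Their median ran from -3.61 to 0.06 over the other fits. With limma voom 8 of the 15 were lower and 0 higher, where 4258 of 17925 genes were at that threshold in either direction.

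Tcrg-C2, a constant gene of the T cell receptor gamma chain (ENSMUSG00000076752, GRCm38 chr13:19304649-19307551, minus strand), rose. It measured 4.54 to 7.0 CPM (median 5.76) with poly I:C, against 1.64 CPM in MT-CTRL 4, 2.28 CPM in MT-PHEN 3 and 2.01 CPM in MT-PHEN 4. The arms did not overlap (log2 fold change 1.48 ± 0.209, adjusted p = 0.048). Tcrg-C1 and Tcrg-C4, its near copies, overlapped, with log2 fold changes of 0.89 ± 0.568 and 0.64 ± 0.684. Reads may be split between these genes.

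Of 35 interferon-stimulated genes listed, 34 passed the filter on low counts. At an unadjusted p under 0.05, 1 was higher and 0 lower (6.72% of all genes were higher), and the median log2 fold change was 0.12. Without MT-COMBO 1 alone, 8 of the 34 were higher and the median was 0.28, and limma voom gave 6 and 0.29. In those fits 3256 of 17751 and 4258 of 17925 genes were at that threshold, in either direction. No interferon-stimulated gene passed the adjusted threshold in these fits, and across the 21 other fits their median ran from -0.03 to 0.44. Ifit2, which binds viral RNA, measured 46.1 to 192 CPM (median 154) with poly I:C, against 91.0 CPM in MT-CTRL 4, 129 CPM in MT-PHEN 3 and 60.3 CPM in MT-PHEN 4. MT-COMBO 1 was the lowest of all 11, so the arms overlapped (0.53 ± 0.371, adjusted p = 0.607). Rsad2, the antiviral enzyme viperin, measured 12.7 to 98.7 CPM against 31.7, 39.9 and 23.8 CPM (0.86 ± 0.525). Isg15, the ubiquitin-like modifier, was 130 ± 46.7 CPM (SD, 8 libraries) against 143 ± 44.0 CPM (SD, 3 libraries). Trim30a was the single member at an unadjusted p under 0.05 (0.38 ± 0.165, adjusted p = 0.361). Bst2, the virion-tethering protein tetherin, gave -0.44 ± 0.31.

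Of 20 genes that interferon gamma induces, 3 were higher and 0 lower at an unadjusted p under 0.05 (6.72% of all genes were higher), none passed the adjusted threshold, and the median log2 fold change was 0.51. The count was 14 without MT-COMBO 1 (median 0.63) and 0 without MT-CTRL 4 (0.365). In those fits 3256 of 17751 and 748 of 18275 genes were at that threshold, in either direction. Ifng itself measured 5.28 to 26.7 CPM (median 17.3) with poly I:C against 5.18 CPM in MT-CTRL 4, 10.1 CPM in MT-PHEN 3 and 4.43 CPM in MT-PHEN 4 (1.20 ± 0.454, adjusted p = 0.295). Cxcl9, a chemokine for CXCR3-bearing T cells, measured 796 to 3591 CPM against 1106, 1761 and 806 CPM (0.97 ± 0.411, adjusted p = 0.345). Ciita, the activator of class II genes, gave 0.70 ± 0.256 (adjusted p = 0.279). Ido1, the tryptophan-degrading enzyme, gave -0.79 ± 0.504.

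Genes that sense double-stranded RNA gave 3 of 16 higher and 0 lower at an unadjusted p under 0.05 (6.72% of all genes were higher). Their median was 0.15. The count was 1 without MT-CTRL 4. Tlr3, the receptor for poly I:C, overlapped at 25.4 to 118.5 CPM against 69.4, 101.2 and 48.3 CPM (0.13 ± 0.402). Tbk1, the kinase that activates IRF3, measured 68.3 to 95.7 CPM against 59.0, 66.8 and 68.0 CPM without overlap (0.25 ± 0.102, adjusted p = 0.33). Ripk1, an adaptor kinase for NF-kB and cell death, gave 0.59 ± 0.167 (adjusted p = 0.173), and Ifnar1, a chain of the type I interferon receptor, gave 0.49 ± 0.157 (adjusted p = 0.223).

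NF-kB targets and inflammatory cytokines gave 4 of 30 higher and 0 lower at an unadjusted p under 0.05 (6.72% of all genes were higher). Their median was 0.48. The count was 12 without MT-COMBO 1 and 1 of 31 without MT-CTRL 4. In those fits 3256 of 17751 and 748 of 18275 genes were at that threshold, in either direction. Saa3, an acute-phase protein, stood out among them: it measured 23.8 to 61.7 CPM (median 35.2) with poly I:C against 4.77 CPM in MT-CTRL 4, 8.62 CPM in MT-PHEN 3 and 9.60 CPM in MT-PHEN 4. Its arms did not overlap (2.29 ± 0.347, adjusted p = 0.0562). Saa3 was 23.5 to 33 CPM in the Krt5-low libraries, so the 3 Krt5-high libraries without poly I:C were the lowest of the 16. Icam1 gave 0.51 ± 0.156 and Vcam1 0.90 ± 0.333, both leukocyte adhesion molecules. Csf3, which encodes granulocyte colony-stimulating factor, overlapped at 3.05 to 20.2 CPM against 7.73, 7.15 and 3.49 CPM (0.98 ± 0.506, adjusted p = 0.446).

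**Figure D3:**
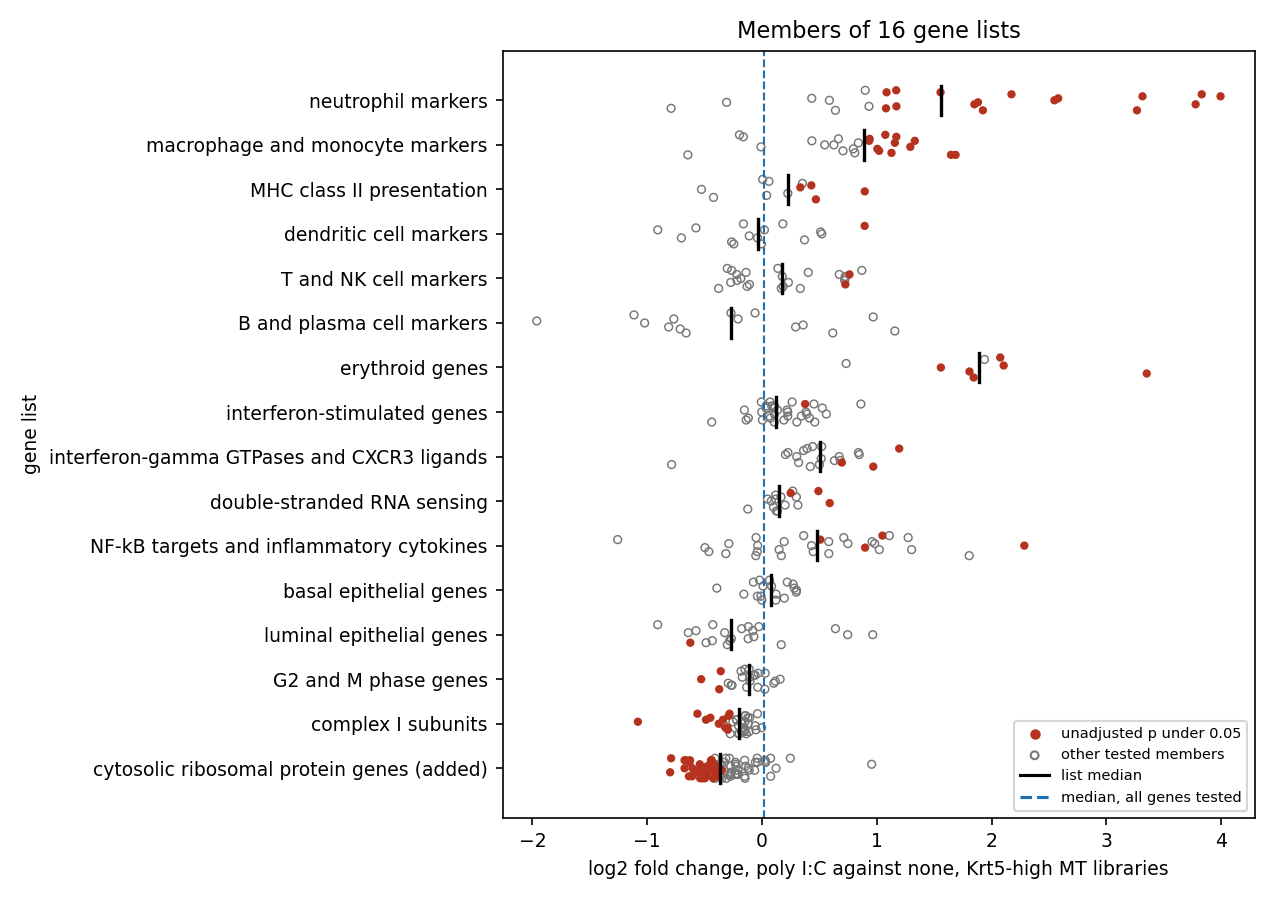
Log2 fold change (poly I:C against none, 11 Krt5-high MT libraries) of every tested member of 16 gene lists. Filled points have an unadjusted p under 0.05, black bars are list medians and the dashed line is the median of all genes tested. Neutrophil markers (median 1.56) and erythroid genes (1.89) lie to the right of the interferon-stimulated genes (0.12), and cytosolic ribosomal protein genes lie to the left (-0.36).

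Among the 9 genes that fell, Fau and Rpl13 encode proteins of the ribosome and Chchd2 one of mitochondria. Fau, which encodes a ubiquitin-like protein fused to a ribosomal protein of the small subunit (ENSMUSG00000038274, chr19:6057844-6059524, plus strand), measured 26.9 to 43.9 CPM (median 30.9) with poly I:C. Without it, Fau measured 51.0 CPM in MT-CTRL 4, 66.3 CPM in MT-PHEN 3 and 86.4 CPM in MT-PHEN 4. The arms did not overlap (-0.96 ± 0.111, adjusted p = 0.0425). Rpl13, a protein of the large subunit, measured 13.2 to 19.6 CPM against 21.1, 27.3 and 39.2 CPM (-0.80 ± 0.109, adjusted p = 0.0469). Chchd2, a mitochondrial intermembrane protein, measured 52.8 to 86.8 CPM against 92.8, 109 and 125 CPM (-0.69 ± 0.0955, adjusted p = 0.0469). Gm15501, a transcribed processed pseudogene and the gene with the smallest p, measured 5.48 to 11 CPM against 15.2, 23.7 and 34.0 CPM (-1.51 ± 0.142, adjusted p = 0.0122). It passed the threshold in 6 of the 11 fits that left out 1 library, and each of the other 10 called genes in 1, that without MT-COMBO 1.

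Ribosomal protein genes were listed after their values were seen. Of 78 tested 35 were lower and 0 higher at an unadjusted p under 0.05, where 6.75% of all genes were lower. Only Rpl13 passed the adjusted threshold, and the median log2 fold change was -0.36. The arms did not overlap for 15 of the 78, against 2.86% of all genes in this direction. Of 75 tested ribosomal protein pseudogenes, which can take reads from their parent genes, 35 were lower and 0 higher, with a median of -0.42. Without MT-CTRL 4, 14 of the 78 ribosomal protein genes were lower, with a median of -0.17. Without the 4 libraries with high Igkc, 10 of 77 fell by the adjusted threshold (1.10% of all genes) and 0 rose. In that fit only MT-CTRL 4 and MT-PHEN 3 lacked poly I:C. Ribosomal protein genes took 1.58% to 2.55% of all counts with poly I:C and 2.22% to 2.65% without, so the shares overlapped. They took 1.5% to 2.14% in the Krt5-low libraries. Mitochondrially encoded genes took 0.697% to 4.50% with poly I:C and 1.63% to 3.80% without. The part of RNA quality in these values was not tested.

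Complex I subunits, the target of phenformin, gave 11 of 36 lower and 0 higher at an unadjusted p under 0.05 (6.75% of all genes were lower), with a median of -0.20. The count was 1 without MT-CTRL 4 (median -0.04) and 1 for MT-COMBO against MT-PHEN (-0.07). Ndufa5 measured 42.8 to 66.8 CPM against 77.5, 83.1 and 75 CPM without overlap (-0.56 ± 0.117, adjusted p = 0.0905). Ndufb7 gave -0.38 ± 0.0982 (adjusted p = 0.148) and Ndufb4 -1.08 ± 0.304 (adjusted p = 0.172).

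Upk3a and Bpifa1 fell by the largest factors. Upk3a, a uroplakin of urothelium (ENSMUSG00000022435, chr15:85017141-85022547, plus strand), measured 0.460 to 1.88 CPM (median 0.906) with poly I:C. It measured 7.57 CPM in MT-CTRL 4, 7.37 CPM in MT-PHEN 3 and 4.36 CPM in MT-PHEN 4, and 0 CPM in each of the 5 Krt5-low libraries (-2.75 ± 0.382, adjusted p = 0.0469). Bpifa1, a secreted defence protein of airway epithelium (ENSMUSG00000027483, chr2:154142880-154149219, plus strand), measured 0.241 to 0.595 CPM against 2.55, 5.53 and 1.88 CPM (-3.02 ± 0.384, adjusted p = 0.0469). Neither overlapped. Ccdc38, a coiled-coil protein, measured 6.11 to 12.5 CPM against 19.98, 18.7 and 24.1 CPM (-1.18 ± 0.157, adjusted p = 0.0469). The non-coding or unnamed genes Gm17305 (-1.52 ± 0.202) and Gm17066 (-1.03 ± 0.144) completed the 9. Bpifa1, Gm15501, Gm17305 and Gm17066 are named because the called set is small, after their values were seen. Bpifa1, so low with poly I:C, could pass the filter on low counts only through the libraries that did not receive it. Its fold change and adjusted p are therefore a description.

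**Figure D4:**
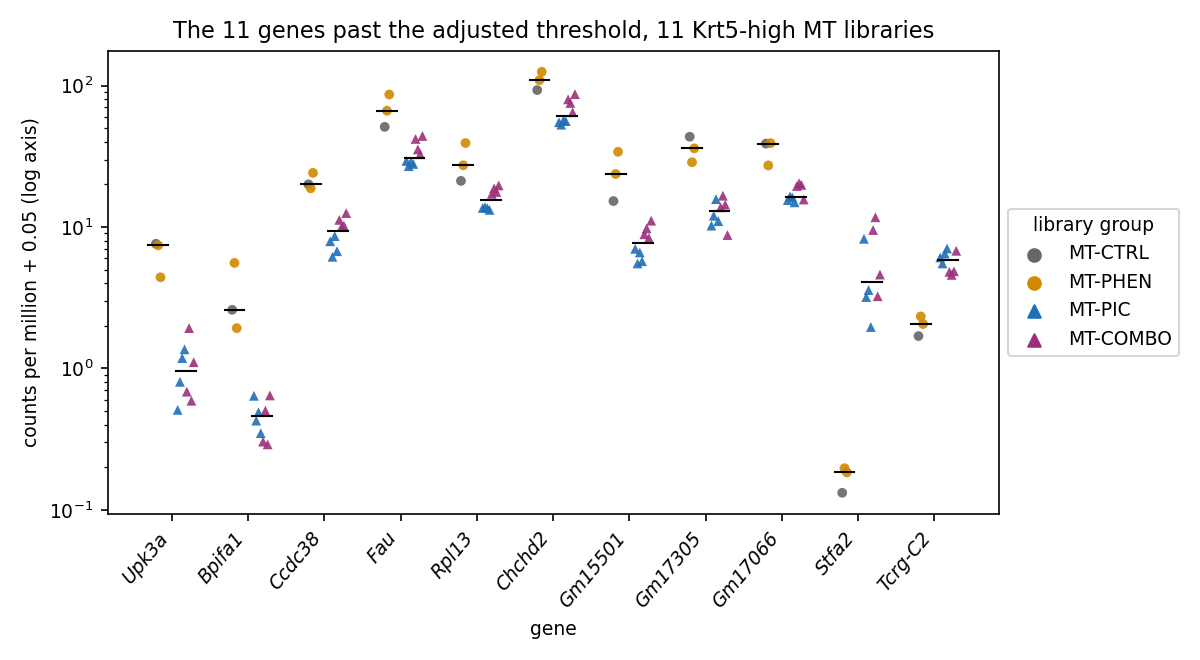
CPM plus 0.05 (log axis) of the 11 genes with an adjusted p under 0.05 in each of the 11 Krt5-high MT libraries, with circles for the 3 without and triangles for the 8 with poly I:C, and a line at each median. The arms do not overlap for any of the 11, with Stfa2 and Tcrg-C2 higher and the other 9 lower with poly I:C.

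Basal epithelial genes gave 0 of 18 in either direction at an unadjusted p under 0.05 and a median of 0.07, a description only, since the libraries were selected on the basal keratin Krt5. At that threshold 6.72% of all genes were higher and 6.75% lower in edgeR's fit of the 11 libraries, the shares to set beside its counts that follow. Luminal genes gave 1 of 21 lower, Gata3, a luminal transcription factor, at 29.2 to 72.3 CPM against 76.5, 72.8 and 65.1 CPM (-0.62 ± 0.242, adjusted p = 0.307). Genes of G2 and M phase gave 3 of 22 lower, with Ube2c, which targets cyclins for degradation, at -0.53 ± 0.157 (adjusted p = 0.191). S phase, hypoxia-responsive and integrated stress response genes gave 0 in either direction, as did MHC class I and adipocyte genes. Fibroblast and matrix genes gave 0 of 24 with a median of 0.26, but 10 higher without MT-PHEN 4 (median 0.78), 12 with limma voom (0.67) and 17 without the 4 libraries with high Igkc (0.89), of which 6 rose by the adjusted threshold. Without MT-CTRL 4 they gave 0 and a median of -0.07. Other fits had other shares of all genes at an unadjusted p under 0.05, in either direction. These were 2743 of 18183 without MT-PHEN 4, 4258 of 17925 with limma voom and 4446 of 17628 without high Igkc. In the fit without high Igkc only MT-CTRL 4 and MT-PHEN 3 lacked poly I:C. Dendritic cell, mast cell, endothelial, mesenchymal transition and p53 target lists gave 1 higher each, and glycolysis genes gave 1 in each direction. Cornified keratinocyte and cholesterol synthesis lists gave 1 lower each, Sox10 and neural crest-like genes gave 3 of 15 lower, and skeletal muscle genes gave 0 of 5 tested.

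The 4T1 model, which shares no library with these 11, gave a second measure of poly I:C (8 libraries with, 7 without). There 871 of 16467 genes rose (5.29%) and 602 fell (3.66%). The count was 59 without the 5 libraries that had Acta1, skeletal muscle actin, above 10 CPM. The difference between the models was tested as an interaction in a joint fit of 26 libraries. In it 238 of 18769 genes were higher (1.27%) and 179 lower (0.954%) in Krt5-high MT relative to 4T1, and 1 gene was called without MT-CTRL 4.

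Macrophage and class II genes often differed between the models, with fold changes of opposite sign. Of 24 macrophage genes 9 had a higher change in Krt5-high MT and 0 a lower one, and of 11 class II genes 6 and 0 (1.27% of all genes were higher). In 4T1, 8 of the 24 and 7 of the 11 fell and 0 rose (3.66% of all genes fell). H2-Ab1 fell by 1.16 ± 0.199 on the log2 scale in 4T1 (174 to 558 CPM with, 418 to 796 CPM without), and the difference from Krt5-high MT was 1.58 ± 0.303 (adjusted p = 0.00816). C1qb fell by 0.81 ± 0.183 in 4T1, with a difference of 1.96 ± 0.367 (adjusted p = 0.00816). Fcgr1 gave -0.52 ± 0.195 in 4T1 (adjusted p = 0.106), with a difference of 2.19 ± 0.455 (adjusted p = 0.0132). Ctss fell by 0.66 ± 0.143, with a difference of 1.55 ± 0.306 (adjusted p = 0.00967). In the Krt5-high MT libraries alone, none of these genes passed the adjusted threshold. Without MT-CTRL 4 the joint fit called 0 genes higher and 1 lower, so none of these higher differences stayed past the threshold.

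Granulocyte genes differed between the models for few members. Of 23 neutrophil markers 1, Ngp, had a higher change in Krt5-high MT: it was 1.96 to 12.7 CPM with and 2.19 to 9.79 CPM without poly I:C in 4T1 (0.43 ± 0.327), and the difference was 3.39 ± 0.661 (adjusted p = 0.00887). In 4T1, 6 of 20 tested markers rose (5.29% of all genes rose), Mmp8 among them by 2.15 on the log2 scale (adjusted p = 0.00774). Stfa2 gave 1.31 ± 0.488 in 4T1 (adjusted p = 0.102), with a difference of 4.29 ± 1.01 (adjusted p = 0.0253). Saa3 rose in 4T1 by 2.47 (adjusted p = 0.0286). Interferon-stimulated genes rose for 6 of 35 in 4T1, with a median of 0.50, and 0 of 35 differed between the models at an adjusted p under 0.05. The difference, Krt5-high MT minus 4T1, was above 0 for 3 of the 35, with a median of -0.42.

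The genes with the smallest p for the difference were Ccdc38, Hoxc9, Ing2, Htr7 and Rbm39. Ccdc38 fell in Krt5-high MT and gave 0.32 ± 0.109 in 4T1 (adjusted p = 0.0774), a difference of -1.498 ± 0.175 (adjusted p = 0.00027). Hoxc9, a homeobox factor, measured 1.84 to 4.30 CPM against 10.4, 5.01 and 5.91 CPM in Krt5-high MT (-1.45 ± 0.297, adjusted p = 0.0899) and rose by 1.51 ± 0.277 in 4T1, a difference of -2.95 ± 0.413 (adjusted p = 0.00218). Htr7, a serotonin receptor, measured 5.58 to 9.63 CPM against 1.89, 3.91 and 2.75 CPM (1.30 ± 0.286, adjusted p = 0.107) and fell by 1.39 ± 0.213 in 4T1, a difference of 2.67 ± 0.388 (adjusted p = 0.00218). Ing2, a chromatin reader, gave a difference of -0.96 ± 0.139 and Rbm39, a splicing factor, one of -0.77 ± 0.113 (adjusted p = 0.00218 for both). Fau differed as well, by -1.02 ± 0.202 (adjusted p = 0.00973), with 0.06 ± 0.144 in 4T1.

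**Figure D5:**
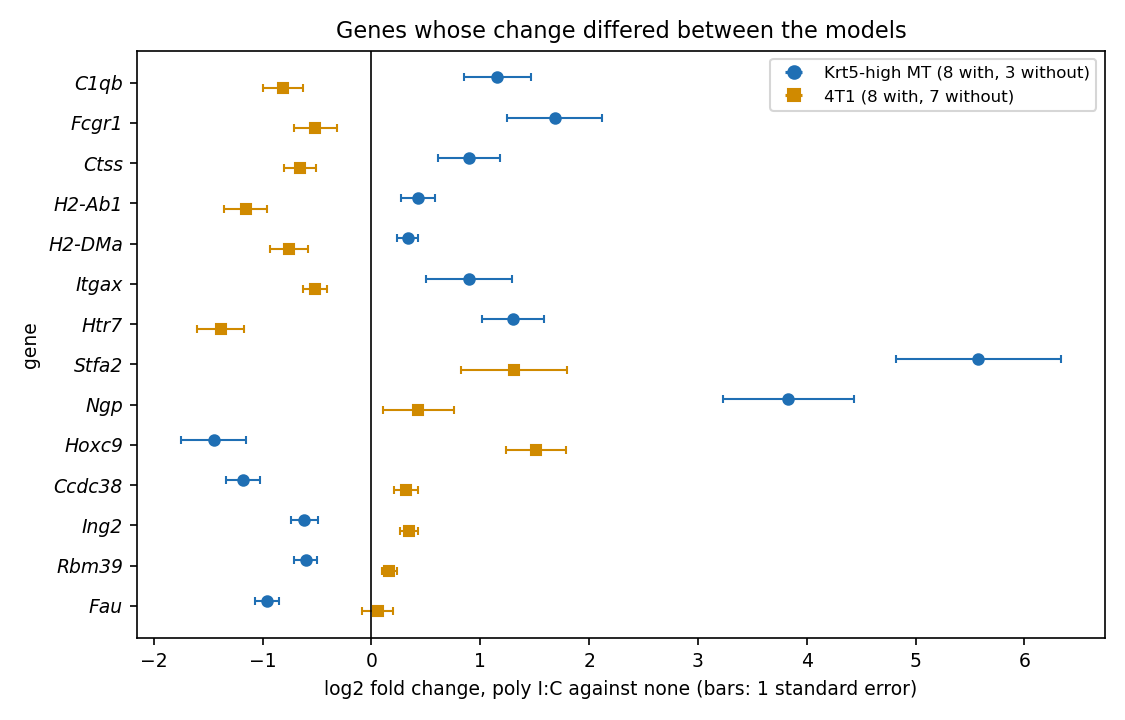
Log2 fold change of poly I:C against none with 1 standard error, for 14 genes with an adjusted p under 0.05 for the difference, in Krt5-high MT (circles, 8 against 3 libraries) and 4T1 (squares, 8 against 7). C1qb, Fcgr1, Ctss, H2-Ab1, H2-DMa, Itgax and Htr7 lie above 0 in Krt5-high MT and below 0 in 4T1, and Hoxc9, Ccdc38, Ing2 and Rbm39 lie the other way round.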

How the data were processed

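Bulk poly(A) RNA of 31 tumour libraries was measured with strand-specific sequencing, per the labels' protocols. The submitters' processing notes list Trimmomatic 0.32.48, STAR 2.3.0 and featureCounts 1.4.4 with mm10 (GRCm38); the annotation release and strand setting are not given in the sources used here. The authors deposited whole-number, unnormalised read counts for 39017 genes, 37607 of them in GENCODE M21, which gave symbols and coordinates.

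Krt5 of at least 100 CPM chose the 11 MT libraries. Counts were filtered (filterByExpr, minimum count 10, minimum total 15), scaled with TMM and tested in edgeR 4.0.16 (R 4.3.3, limma 3.58.1) with terms for poly I:C and phenformin. The same fit was used for 15 4T1 libraries, and a joint fit tested the difference. Calls needed a Benjamini-Hochberg adjusted p under 0.05. SE was obtained from the log2 fold change and the F statistic, as their ratio with the root of F. The fits were tested on simulated data.

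The members and gene lists were chosen with earlier results of these data known. Named genes were those called, with an informative symbol and a mean log2 CPM not below 1, up to 3 members of each list with the smallest p (6 for interferon, double-stranded RNA, NF-kB and neutrophil lists), and the 5 smallest p for the difference. Some of these are given only within counts, a choice made after their values were seen. Naming Elane, Ms4a3, Prtn3, Camp, Cd177, S100a8, Cxcr2, Ly6g, Lcn2, Slpi and Csf3 was also decided after their values were seen. So was naming Tlr3, Isg15, Ido1, Spp1, Tcrg-C1, Tcrg-C4 and stefin A genes other than Stfa2 and Stfa2l1. Alternatives were DESeq2 1.42.0, limma voom with quality weights, other filters, scaling and covariates, and leaving out libraries. Some named genes are not reported here.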

Additional observations from a re-analysis of the deposited data

Results flagged for a closer look

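Within the groups of 4 libraries, 8 of 73 tests found 1 library far from the other 3 (chance gives about 1 in 20), in MT-COMBO 1, MT-PIC 2 and MT-COMBO 4. MT-COMBO 1 was lowest in its group for Ifit2 (46.1 CPM, next 129.5 CPM) and Trim30a (106 CPM, next 150 CPM), and highest for S100a8 (339 CPM, next 181 CPM). MT-PIC 2 was highest in its group for Csf3r (33.2 CPM, next 22.6 CPM), Alas2 (26.8 CPM, next 12.7 CPM) and Slc4a1 (15.6 CPM, next 3.29 CPM). MT-COMBO 4 was highest for Ccl7 (68.3 CPM, next 27.2 CPM) and lowest for Cenpe (90.7 CPM, next 133 CPM).

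The poly I:C change of 22 named genes differed between Krt5-high MT and 4T1 by the interaction test at an adjusted p under 0.05. Without MT-CTRL 4 that test called 0 genes higher and 1 lower among all genes. With all 26 libraries the change was higher in Krt5-high MT, on the log2 scale, for Stfa2 (4.29), Ngp (3.39), Cd177 (2.94), Htr7 (2.67), Fcgr1 (2.19), C1qb (1.96), Tcrg-C2 (1.84), H2-Ab1 (1.58), Ctss (1.55), Itgax (1.41), H2-DMa (1.09), Tgfbi (0.90) and Pfkfb4 (0.81). It was lower for Hoxc9 (-2.95), Gm17305 (-1.61), Ccdc38 (-1.50), Gm15501 (-1.44), Gm17066 (-1.29), Fau (-1.02), Ube2c (-0.97), Ing2 (-0.96) and Rbm39 (-0.77).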

How the results depend on the processing

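For poly I:C in Krt5-high MT libraries, 11 genes were called with DESeq2 size factors and 11 with at least 1 CPM in 3 libraries. The count was 668 with DESeq2, 576 with limma voom and quality weights, 2 without a filter on low counts, 7 without the phenformin term, 161 with Krt5 at or above 1000 CPM (the same fit as without MT-COMBO 1), 289 with log2 Krt5 CPM as a covariate, 0 for MT-COMBO against MT-PHEN alone (412 at an unadjusted p under 0.05) and 3710 with all 16 MT libraries. It was 405 without the MT libraries with Igkc above 1000 CPM, an alternative chosen after seeing the data. That fit kept only MT-CTRL 4 and MT-PHEN 3 without poly I:C. Leaving out 1 library at a time gave 0 to 161.

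For poly I:C in 4T1 libraries, 1473 genes were called, 2333 with DESeq2, 628 without the phenformin term, 59 without 4T1 libraries with Acta1 above 10 CPM, and 718 to 1537 with 1 library left out. For poly I:C, Krt5-high MT minus 4T1, 417 genes were called, 818 with DESeq2, 1383 with limma voom, 119 without the Acta1 libraries, 715 without the Igkc libraries, and 1 to 690 with 1 library left out (1 without MT-CTRL 4, 690 without MT-PHEN 4). The replicate number as a block gave 0 calls in Krt5-high MT (1428 at an unadjusted p under 0.05), 1128 in 4T1 and 139 for the difference. Same-numbered MT-PIC and MT-COMBO libraries deviated with correlations of -0.655, 0.272, -0.808 and 0.00642, so the numbers were not taken to pair samples. The cause of these shifts was not tested.

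Among the named genes of the Krt5-high comparison, 1385 values (1 for each gene and setting) kept their direction and side of the threshold, 144 gained and 145 lost the call, and 3 reversed, all with all 16 MT libraries: S100a8 (-2.60), Adar (-0.092) and Krtdap (0.46). In simulated data at these library totals 26% of 2-fold and 81% of 4-fold changes were recovered, with 3 false calls.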

Other observations

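Other genes that separated the arms without overlap were chosen after their values were seen. Fpr1, the formyl peptide receptor of phagocytes, measured 1.87 to 4.22 CPM with poly I:C against 0.493 CPM in MT-CTRL 4, 0.737 CPM in MT-PHEN 3 and 0.604 CPM in MT-PHEN 4 (log2 fold change 2.27 ± 0.338, adjusted p = 0.0562). Ifitm6, an interferon-induced transmembrane family gene of myeloid cells, measured 3.35 to 18.7 CPM against 0.658, 1.03 and 2.15 CPM (3.13 ± 0.508, adjusted p = 0.072), while its relative Ifitm3 overlapped (-0.31 ± 0.354). Serpina3g, a serine protease inhibitor, measured 118 to 200.2 CPM against 55.3, 101.0 and 82.8 CPM (1.08 ± 0.203, adjusted p = 0.0841). Among lower genes, Rbm25, a splicing factor, measured 274 to 452 CPM against 796, 670.1 and 624 CPM (-1.01 ± 0.162, adjusted p = 0.0677). None of the 4 separated genes passed the adjusted threshold.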
